A study of Aspergillus oryzae with 20 samples.

Results

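The subject is admA (AO090138000114) of the koji mould Aspergillus oryzae and the 4 genes that flank it, AO090138000112, AO090138000113, AO090138000115 and AO090138000116. These 5 of the 12074 genes in the files were chosen by locus tag, admA because it is the gene deleted and the others because their tags lie next to it. The RefSeq table of assembly ASM18445v3 gives AO090138000114 the symbol admA and places AO090138000115 and AO090138000116 on one side of it and AO090138000113 and AO090138000112 on the other, with no gene in between. The other deleted gene, admB, is not paired with a locus tag in the sources used here and is not analysed here.

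RNA was sequenced from 4 strains in 5 libraries each, 20 in all. Every strain was of RIB40 background, and the genotype labels of all 4 name a deletion of pyrG (the orotidine 5'-phosphate decarboxylase gene) followed by pyrG+ ligD+ in brackets. Transcript of pyrG (AO090011000868) was listed in all 20 libraries, at 6.83 to 59.6 RPKM, and the labels do not say where the pyrG+ copy lies. The deletion control has no further change, and the other strains lack admA (ΔadmA), admB (ΔadmB) or both (ΔadmAΔadmB). All were grown on wheat bran solid medium at 30 °C for 72 h. The labels do not say how much of admA was removed, what took its place, whether each strain is 1 clone, or whether each library had its own flask. The p-values therefore measure library-to-library spread, and this spread may be technical.

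ADAM proteins are membrane-anchored metalloproteases with a zinc-binding protease domain and a disintegrin-like domain, and in animals they are known for releasing the outer parts of other membrane proteins. In the fission yeast Schizosaccharomyces pombe the ADAM family protein Mde10 is needed for a normal spore envelope. The 4 flanking genes have no symbol in the reference table, so no role is given to them.

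The values are RPKM, read numbers scaled for the length of the gene and the mapped reads of the library. Values of low genes moved in whole steps, each worth an estimated 1 read, and these steps gave the relative depth of the libraries, which ran from 1.00 in ΔadmB replicate 4 to 2.50 in control replicate 1. In each library, 96.7% to 99.1% of the low values checked were a whole number of steps within 0.03%. The same steps divided the libraries into set 1 with 12 and set 2 with 8, and the sources used here do not say what these sets are. Between 655 and 1260 genes per library were listed at 0. A 0 also occurred in 8 cases among the 3233 genes with a median of at least 100 RPKM, so a gene is described only as listed at 0. In RNA from whole cultures, fewer cells of a type and less RNA per cell cannot be told apart.

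admA was nearly silent in the deletion control. It was at 0.25, 0.10, 0, 0.13 and 14.24 RPKM in control replicates 1 to 5, which is about 4.02, 1.00, 0, 1.00 and 116 one-read steps. Control replicate 5 thus stood apart, and in the other 4 controls the level rested on an estimated 0 to 4 reads. The step is taken from control replicates 2 and 4, whose values were equal once scaled for depth. Both are of set 2, and the step was carried to set 1 by the median ratio of steps in genes with a step in both sets. Among libraries with admA above 0, only these replicates were at a whole step within 0.03%. The read numbers of admA are therefore approximate. The control median of 0.130 RPKM was above the median of 8.35% of all genes.

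In ΔadmB, which keeps admA, the gene was at 0.26, 0.21, 0.43, 3.42 and 1.05 RPKM in replicates 1 to 5. These values correspond to about 3.00, 1.99, 5.78, 22.1 and 13.0 steps, so every ΔadmB library held some signal. The ΔadmB median of 0.427 RPKM exceeded the medians of 12.6% of genes. ΔadmB and the control overlapped, and their mean log2(RPKM + 1) differed by -0.05 (two-sided exact permutation test, n = 5 each, p = 0.99). Without control replicate 5 the sign turned, with ΔadmB higher by 0.70 (exact permutation test, n = 5 and 4, p = 0.032).

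In the strains that lack admA, the residual signal was at or next to nothing. All 5 ΔadmAΔadmB libraries and ΔadmA replicates 1, 2, 3 and 5 listed the gene at 0. The only value above 0 was 0.0917 RPKM in ΔadmA replicate 4, or 0.907 of a step, the lowest of the 10 values above 0 in the series. A 0 allows up to 3 reads. By the approximate step this is 0.230 to 0.398 RPKM in the ΔadmA libraries and 0.290 to 0.371 in the ΔadmAΔadmB libraries, for counting error only. Control replicate 1, at 0.25 RPKM, lay within the span of these limits and control replicates 2 to 4 lay below it, so at this depth single controls other than replicate 5 could not be told from a library without the gene. ΔadmB replicates 3, 4 and 5 lay above all of these limits.

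**Figure D1:**
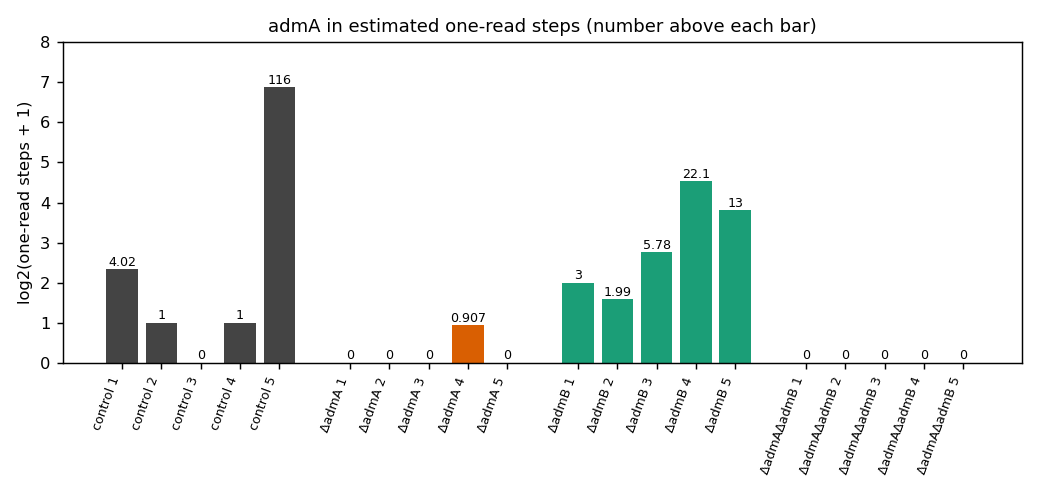
Estimated one-read steps of admA in each of the 20 libraries, drawn as log2(steps + 1) with the number of steps above each bar and colours for the 4 strains. The strains that lack admA hold 1 bar, in ΔadmA replicate 4 at 0.907 steps, and the strains that keep it reach 116 steps in control replicate 5 and 22.1 in ΔadmB replicate 4.

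Of the 10 libraries with an intact admA 9 had a value above 0, and of the 10 without it 1 had (two-sided Fisher's exact test, p = 0.0011). No other gene had so small a p in the same count, so that 0.00828% of the 12074 genes reached it. As admA is the gene deleted in the 10 libraries without it, this count serves as a check of the strain labels. The mean log2(RPKM + 1) was 0.89 in the 10 libraries that keep admA and 0.01 in the 10 that lack it, a difference of 0.87 (two-sided permutation test, 100000 resamples, p = 0.00022). Without control replicate 5 this difference was 0.54. Within library set 1 the difference was 1.36 (exact permutation test, n = 6 each, p = 0.0022) and within set 2 it was 0.15 (n = 4 each, exact permutation p = 0.14).

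With admB present, the size of the admA difference rested on control replicate 5. Between ΔadmA and the control the mean log2(RPKM + 1) differed by -0.89 (two-sided exact permutation test, n = 5 each, p = 0.048). Without control replicate 5 the difference was -0.13 (exact permutation p = 0.095), and without any other single library it was -0.88 to -1.12. The p was no longer under 0.05 in 9 of these 10 tests, in 8 of which the difference was about as large or larger with 1 library fewer. Between ΔadmAΔadmB and ΔadmB it was -0.86, with all 5 ΔadmB values above all 5 ΔadmAΔadmB values (exact permutation p = 0.0079, the smallest that 5 against 5 allow). Without ΔadmB replicate 4 it was -0.54. Whether these differences themselves differ was tested only in the limma fit without a filter on low genes, described below for the flanking genes. There the interaction was 0.03 (limma, adjusted p = 1), and the log2 differences of admA itself had adjusted p-values of 0.68 for ΔadmA against the control and 0.93 for ΔadmAΔadmB against ΔadmB.

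The level of admA in the strains that keep it was set beside measures of the whole library. On the first principal component, which took up 27.0% of the variance, the 10 libraries that keep admA scored from -67.3 to 94.4. The 3 with most admA, control replicate 5 and ΔadmB replicates 4 and 5, had the scores 83.7, 94.4 and 21.1, the 3 highest of the 10, although 21.1 lay near the next score of 13.4. Scores of 43.5, 70.4, 51.6 and 81.5 were also found in replicates 4 and 5 of ΔadmA and of ΔadmAΔadmB, which lack admA. The level of pyrG was 6.83 RPKM in control replicate 5 and 14.9 in ΔadmB replicate 4, and between 36.3 and 53.8 in the other 8 that keep admA. It was similarly low in replicates 4 and 5 of the strains that lack admA, at 15.6 and 10.3 RPKM in ΔadmA and 18.5 and 13.6 in ΔadmAΔadmB. ΔadmA replicates 2 and 3, at 28.7 and 21.1 RPKM of pyrG, were also under the range of those 8. ΔadmA replicate 1 was at 59.6 RPKM and ΔadmAΔadmB replicates 1 to 3 were at 39.4 to 48.9. Of 26 symbols of conidiophore and conidium markers 10 were found in the reference table, and each was above 0 in every library. Their summed level ran from 1843 to 2830.4 RPKM over the controls, from 1340.2 to 3759 over ΔadmA, from 1671 to 2194 over ΔadmB and from 557 to 2529.5 over ΔadmAΔadmB, with 2656 in control replicate 5 and 1671 in ΔadmB replicate 4. Of the 10 markers, flbB and medA had the highest medians, at 1342 and 303 RPKM, and ayg1 reached 1745, so these weigh most in the sum. Among the other markers, brlA ran from 0.476 RPKM in ΔadmB replicate 4 to 90.2 in ΔadmA replicate 1, with 1.60 in control replicate 5. wetA ran from 8.98 to 16.4 RPKM, with 11.9 in control replicate 5 and 11.6 in ΔadmB replicate 4. The part of the library state in the level of admA was not tested.

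**Figure D2:**
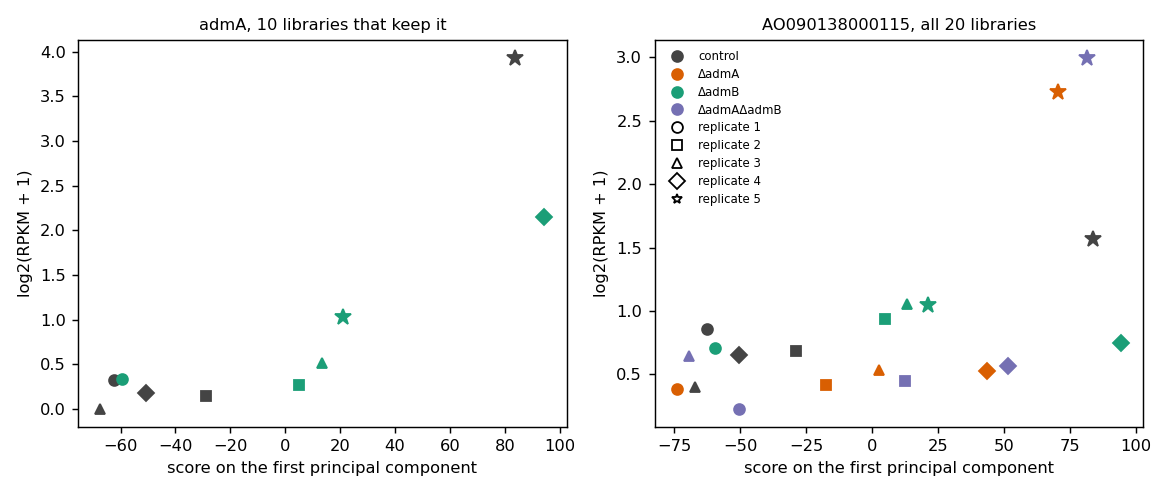
Level as log2(RPKM + 1) against the library's score on the first principal component, for admA in the 10 libraries that keep it (left) and AO090138000115 in all 20 (right), with colours for strains and shapes for replicate numbers. In the left panel the 3 highest points, at 14.24, 3.42 and 1.05 RPKM, have the 3 highest scores, and in the right panel the 3 highest points are replicate 5 of ΔadmAΔadmB, ΔadmA and the control.

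The flanking genes address whether the strains that lack admA differ at the locus beyond admA itself. None of the 3 that could be tested in the fit over all genes passed. The fit used limma on log2(RPKM + 1) over all 20 libraries and took genes that reached 1 RPKM in 5 or more of them. Of the 5 members, AO090138000113, AO090138000115 and AO090138000116 were among the 10652 genes tested, while admA and AO090138000112 reached 1 RPKM in 3 libraries each and were not. In ΔadmA against the control 1.08% of the genes passed at an adjusted p of 0.05 and 0 of the 3 flanking genes did. That share is unsteady: the 115 genes became 2 with only the libraries compared, 24 without ΔadmA replicate 3, 34 without ΔadmA replicate 5, 307 without ΔadmA replicate 1 and 686 with sample quality weights. In ΔadmAΔadmB against ΔadmB, ΔadmAΔadmB against the control, ΔadmB against the control, the interaction and the loss of admA averaged over both admB states, 0% of all genes passed, with 612, 519, 864, 693 and 1056 genes at an unadjusted p under 0.05. These counts of 0 also moved, for the averaged loss to 353 with sample quality weights and 165 without ΔadmA replicate 1, for ΔadmB against the control to 746 with the weights, and for the interaction to 67 and 66. The flanking genes did not pass in any of these fits either. The comparisons share strains with each other and are not independent.

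AO090138000116, the second gene on one side, was the only member that was well expressed. It was at 80.2, 62.6, 90.0, 161 and 30.2 RPKM in control replicates 1 to 5, above the median of 69.3% of genes by its own median. It was at 72.1, 56.1, 39.2, 29.9 and 87.0 RPKM in ΔadmA and at 19.3, 69.8, 83.9, 69.1 and 56.3 in ΔadmB. In ΔadmAΔadmB it was at 55.4, 31.2, 42.0, 14.0 and 46.5 RPKM, and all 4 strains overlapped.

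The mean level of AO090138000116 was 84.9 ± 48.4 RPKM for the control (SD, n = 5 here and below), 56.9 ± 23.3 for ΔadmA, 59.7 ± 24.6 for ΔadmB and 37.8 ± 15.9 for ΔadmAΔadmB. Loss of admA, averaged over both admB states, gave a log2 difference of -0.55 (95% interval -1.25 to 0.15, limma adjusted p = 0.63). The single comparisons gave -0.48 for ΔadmA against the control (limma adjusted p = 0.83) and -0.63 for ΔadmAΔadmB against ΔadmB (limma adjusted p = 0.92). ΔadmAΔadmB against the control gave the largest difference of the 3 tested flanking genes in that comparison, -1.08 (95% interval -2.07 to -0.09, unadjusted p = 0.034, limma adjusted p = 0.97). ΔadmB against the control, where the admA locus is intact in both, gave -0.46 (limma adjusted p = 0.79). Single libraries moved these values: ΔadmB against the control was -0.10 without ΔadmB replicate 1 and -0.77 without control replicate 5, ΔadmA against the control was -0.20 without control replicate 4 and -0.79 without control replicate 5, and ΔadmAΔadmB against ΔadmB was -0.32 without ΔadmAΔadmB replicate 4 and -0.98 without ΔadmB replicate 1. In the main fit the interval of the averaged difference leaves room for a drop of up to 1.25 log2 units. Over 29 alternative fits the averaged difference was -0.94 to -0.40. With sample quality weights it was -0.94 (95% interval -1.53 to -0.35, limma adjusted p = 0.071). It was -0.71 (-1.37 to -0.05) without control replicate 5 and -0.73 (-1.37 to -0.09) without ΔadmB replicate 1.

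AO090138000115, the gene directly beside admA on the same side, was low and counted in whole steps. It was at 0.81, 0.61, 0.32, 0.57 and 1.96 RPKM in control replicates 1 to 5, or 9, 4, 2, 3 and 11 steps. In ΔadmB it was at 0.64, 0.91, 1.08, 0.68 and 1.06 RPKM, the narrowest range of the 4 strains. ΔadmA had 0.31, 0.34, 0.45, 0.44 and 5.62 RPKM and ΔadmAΔadmB had 0.17, 0.36, 0.56, 0.48 and 6.98 RPKM, so that in both strains that lack admA the first 4 libraries held 1 to 4 steps and replicate 5 held 29 and 41.

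The averaged difference of AO090138000115 was 0.08 on the log2 scale (95% interval -0.65 to 0.81, limma adjusted p = 0.97). For ΔadmA against the control it was 0.09 and for ΔadmAΔadmB against ΔadmB it was 0.08 (limma adjusted p = 0.98 and 0.998). Each turned sign without 1 library, to -0.37 without ΔadmA replicate 5 and to -0.43 without ΔadmAΔadmB replicate 5, and the averaged difference turned to -0.17 without the latter, so no direction is given. The gene entered the fit with exactly 5 libraries at 1 RPKM or more, namely replicate 5 of all 4 strains and ΔadmB replicate 3. Replicate 5 of the control, ΔadmA and ΔadmAΔadmB had scores of 83.7, 70.4 and 81.5 on the first principal component, while ΔadmB replicate 4, with a score of 94.4, held 0.68 RPKM. The part of the library state in these values was not tested.

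AO090138000113, the gene directly beside admA on the other side, was at 0.86, 1.10, 1.16, 0.45 and 4.00 RPKM in control replicates 1 to 5. It was at 0.36, 0, 1.64, 0.23 and 2.70 RPKM in ΔadmA and at 0, 1.46, 0, 0.53 and 0.56 in ΔadmB. In ΔadmAΔadmB it was at 1.62, 0.43, 0.33, 1.89 and 11.9 RPKM. Replicate 5 was again the highest library in the control, ΔadmA and ΔadmAΔadmB, and the 4 strains overlapped.

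For AO090138000113 the comparisons of admA loss had opposite signs, with intervals that span 0 in the main fit. The log2 difference was -0.38 for ΔadmA against the control (95% interval -1.52 to 0.76, limma adjusted p = 0.89) and 1.00 for ΔadmAΔadmB against ΔadmB (95% interval -0.14 to 2.14, limma adjusted p = 0.88). The interaction, which tests that difference, was 1.38 (95% interval -0.23 to 2.99, limma adjusted p = 0.80), and the averaged difference was 0.31 (limma adjusted p = 0.86). Without ΔadmAΔadmB replicate 5 the 1.00 became 0.45, the interaction 0.83 and the averaged difference 0.03, and without control replicate 5 the -0.38 became -0.10. With the replicate block the interval of the 1.00 was 0.06 to 1.93 (limma adjusted p = 0.53). That of the interaction was 0.06 to 2.70 with the block (limma adjusted p = 0.45).

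**Figure D3:**
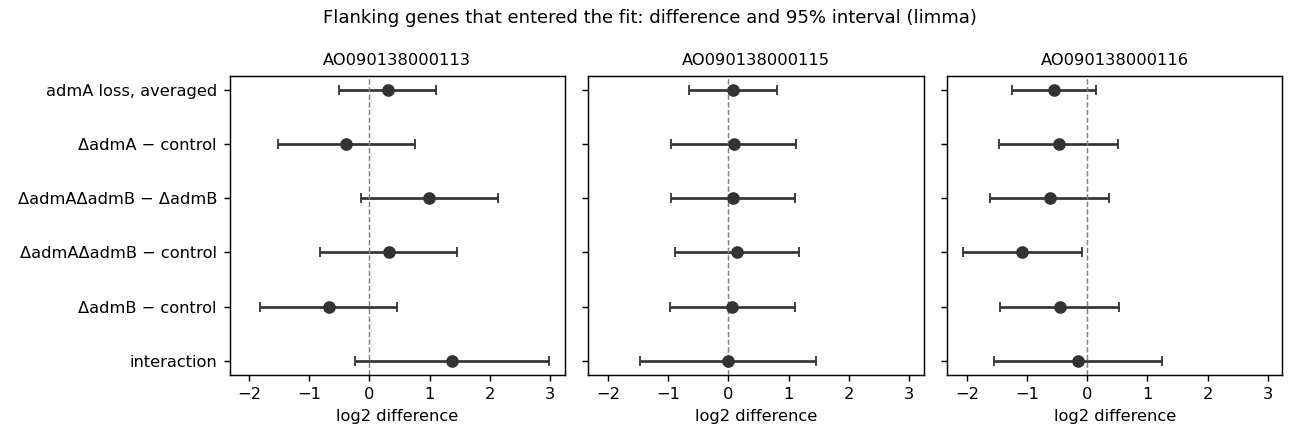
Log2 difference of the 3 flanking genes that entered the limma fit in each of the 6 comparisons, with points for the estimate and bars for the 95% interval. The intervals span 0 except for AO090138000116 in ΔadmAΔadmB against the control, at -1.08, which did not pass after adjustment.

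AO090138000112, the second gene on the other side, was close to silent except in 3 libraries. It was at 0.18, 0.15, 0.16, 0 and 7.60 RPKM in control replicates 1 to 5 and at 0, 0.11, 0, 0.14 and 0.57 in ΔadmA. In ΔadmB it was at 0.12 RPKM in replicate 1 and listed at 0 in the other 4. ΔadmAΔadmB had 0.16, 7.83, 0.27, 0.15 and 1.99 RPKM, so that the libraries with most signal were ΔadmAΔadmB replicates 2 and 5 and control replicate 5.

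The 5 values of AO090138000112 in ΔadmAΔadmB all lay above the 5 of ΔadmB, as 0.901% of the tested genes did in either direction, and admA was the other member to separate these strains. No member had separate groups in ΔadmA against the control, ΔadmAΔadmB against the control or ΔadmB against the control, where 1.98%, 0.601% and 1.12% of genes did. The mean log2(RPKM + 1) differed by 1.07 (two-sided exact permutation test, n = 5 each, p = 0.0079, the smallest possible and not adjusted over genes). In steps the groups did overlap: ΔadmAΔadmB replicates 1 and 4 and ΔadmB replicate 1 held 1 step each, and their RPKM differ only because the libraries differ in depth. The other ΔadmAΔadmB libraries held 44.4, 2 and 12 steps. Without ΔadmAΔadmB replicate 2 the difference was 0.56. Between ΔadmB and the control the difference was -0.72 (exact permutation p = 0.048), which became -0.13 without control replicate 5 (exact permutation p = 0.095). ΔadmA against the control differed by -0.55 (exact permutation p = 0.51). In the limma fit without a filter no comparison of this gene passed (adjusted p = 0.90 for ΔadmAΔadmB against ΔadmB and 0.75 for ΔadmB against the control).

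**Figure D4:**
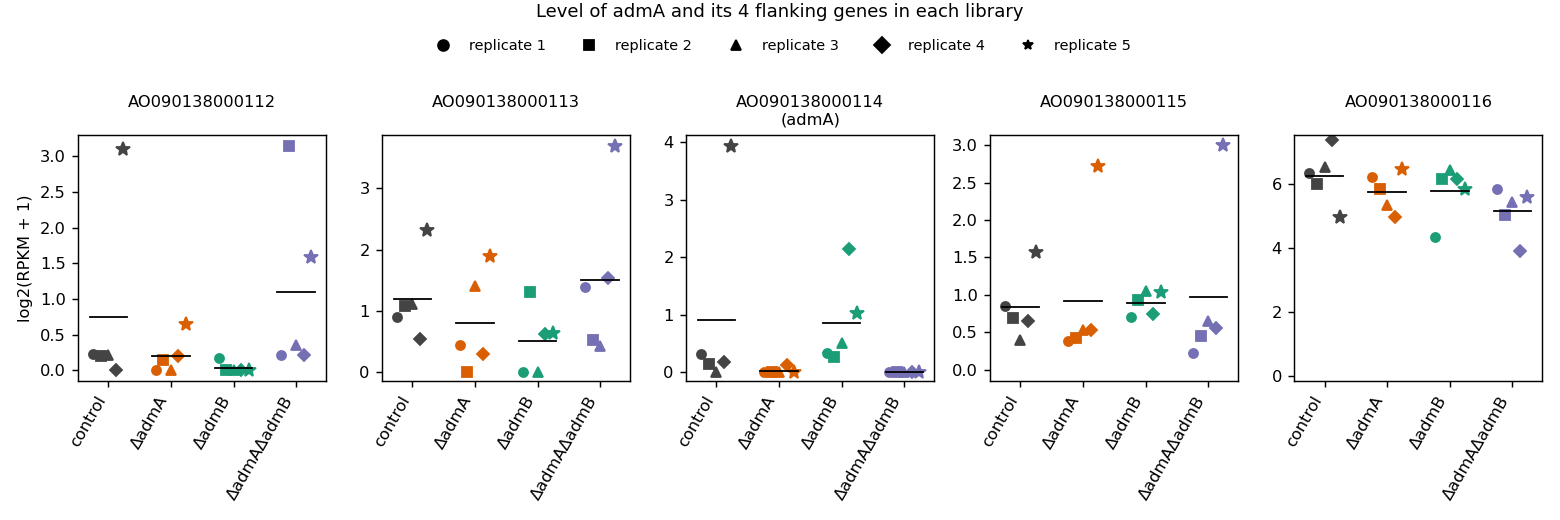
Level of admA and the 4 flanking genes as log2(RPKM + 1) in each library, with 1 panel per gene, shapes for replicate numbers and a line at the strain mean. AO090138000116 lies between 14.0 and 161 RPKM in all strains, and in the other panels single libraries, often replicate 5, carry the strain mean.

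Further out, the 19 other genes with tags from AO090138000102 to AO090138000126 were read as a background for the flanking genes. Of these, 13 entered the limma fit. In ΔadmA against the control 8 had a positive and 5 a negative difference, with a median of 0.16 against 0.00 over all genes tested. In ΔadmAΔadmB against ΔadmB 10 were positive and 3 negative, with a median of 0.17 against 0.00. No gene of the list passed there, in ΔadmB against the control, in ΔadmAΔadmB against the control or in the averaged loss.

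One gene of this list, AO090138000123, passed in ΔadmA against the control, with a log2 difference of 4.25 (limma adjusted p = 0.044). The call was lost in 21 of 29 alternative fits (limma adjusted p from 0.00054 to 0.19), among them the replicate block (0.070) and 17 of the 20 fits without 1 library. The log2 difference itself was 3.88 to 6.88 over these alternatives and 4.25 with the block. It was at 52.4, 34.9, 30.5 and 40.1 RPKM in ΔadmA replicates 2 to 5, at 35.0 and 1.31 in ΔadmAΔadmB replicates 1 and 5, and listed at 0 in the other 14 libraries. These values rest on very few reads. Scaled for depth, ΔadmA replicates 4 and 5 and ΔadmAΔadmB replicate 1 were equal at 31.5, and ΔadmA replicate 2 held 2.00 times the value of replicate 3, so that 1 step was worth 26.2 to 40.1 RPKM in the ΔadmA libraries above 0. A 0 in a control allows up to 3 steps, more than the 1 or 2 found in ΔadmA. The value of ΔadmAΔadmB replicate 5 was 0.037 of a step.

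**Figure D5:**
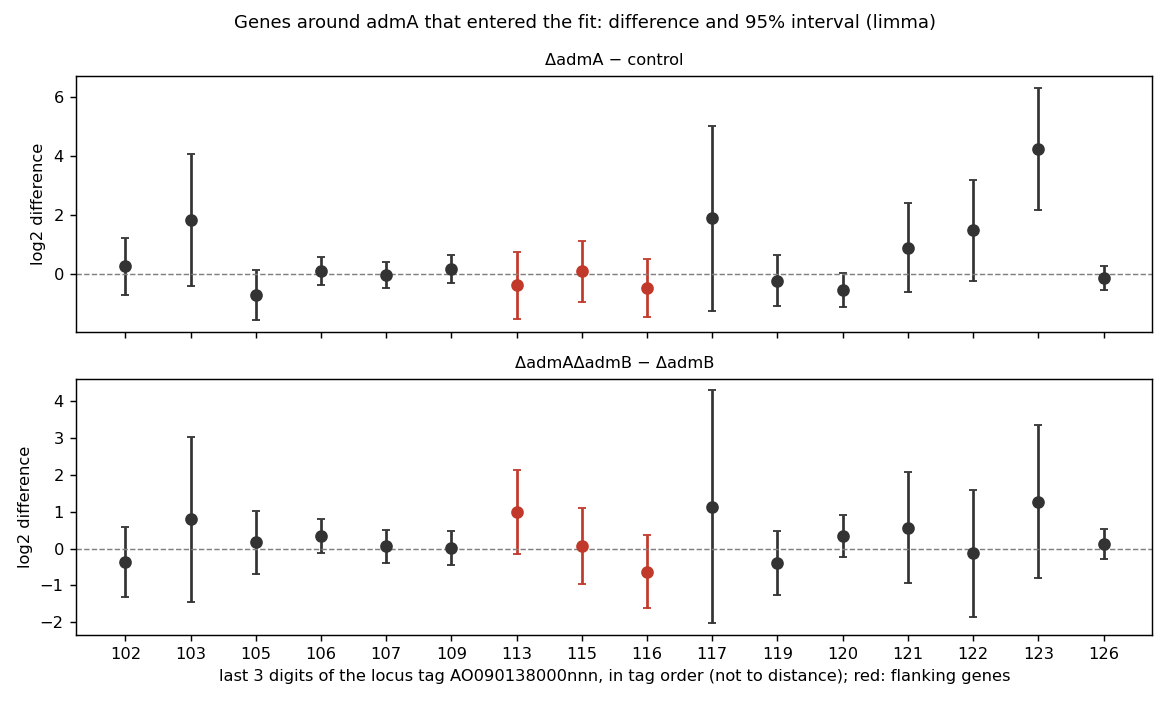
Log2 difference with its 95% interval (limma) of the 16 genes around admA that entered the fit, in the order of their locus tags, for ΔadmA against the control (top) and ΔadmAΔadmB against ΔadmB (bottom), with flanking genes in red. The red intervals span 0 in both panels, and AO090138000123, at 4.25 in the top panel, is the gene that passed.

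Of the other peptidase and cell surface genes tested none passed. Of all genes tested 1.08% passed in ΔadmA against the control and 0% in the other comparisons, so these counts say little about lists this short. Of 36 symbols listed for metallopeptidases 3 are in the reference table, and besides admA these are cym1, a mitochondrial peptidase gene, and lap1, a leucine aminopeptidase gene. In ΔadmA against the control their log2 differences were -0.27 and -0.03, and neither passed in any comparison made. cym1 had a median of 22.4 RPKM over the 20 libraries and lap1 one of 275. Of 40 symbols for cell surface sensors and wall integrity signalling, processes in which membrane proteins at the cell surface take part, 10 were found and tested. None passed in any of the comparisons (limma), with a median difference of 0.31 in ΔadmA against the control, where 8 of 10 were positive, and of 0.08 in ΔadmAΔadmB against ΔadmB, where 6 of 10 were, beside 0.00 over all genes in both.

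By the rank correlation of their levels over the 20 libraries, the tested genes most like admA were AO090005001018, AO090009000125 and AO090001000153, with Spearman rho of 0.79, 0.77 and 0.75. For admA this measure is shaped by the 10 libraries at 0. The nearest in pattern to the flanking genes AO090138000112, AO090138000113, AO090138000115 and AO090138000116 were AO090010000036 (rho 0.77), AO090020000609 (0.80), AO090038000383 (0.80) and AO090023000037 (0.73). They share libraries and depth with the genes they resemble, and in low genes these values rest on few reads. All were picked as the highest rho among the 10652 genes tested, as a description, and were not tested against chance.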

How the data were processed

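The deposited values are RPKM per gene and library, per the file headers. The submitters' processing notes name Cufflinks 2.1.1, TopHat2 2.0.9, CASAVA 1.8.2 and FastQC 0.10.1. The role of each, the build and the annotation were not given in the sources used here, so no coordinates are printed. All 12074 identifiers matched the RefSeq table, which was used for symbols and gene order. Members, lists and tests were chosen with earlier results of these data known. The named genes were the 5 members, genes of the genotype labels, the closest patterns and list members past the threshold.

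Relative depth came from genes with a mean under 1.5 RPKM: the most common ratio between libraries, corrected by 2 where all steps were even, which was so in ΔadmB replicate 4. Reads in all are unknown; the step taken as 1 read is an estimate. The pseudocount was 1. Differences on this scale understate changes of genes low in RPKM. This does not hold for AO090138000123, where 1 step was worth 18.7 to 46.7 RPKM over the 20 libraries and so gives a large log2 difference over a 0. A model with 1 mean for each strain was fitted with limma 3.58.1 in R 4.3.3 (eBayes with a trend, Benjamini-Hochberg over 10652 genes, threshold 0.05); single values were compared by permutation in scipy 1.17.1. Depth and fit steps were tested on simulated data. Replicate numbers are shared between strains. Deviations of same-numbered libraries had median correlations of 0.36, 0.14, 0.04, 0.07 and 0.24 for numbers 1 to 5, against -0.04 for different numbers. Same-numbered libraries thus tended to deviate together, though not in every pair. The main fit has no block, and the replicate block was run as an alternative.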

Additional observations from a re-analysis of the deposited data

Results flagged for a closer look

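Among 19 sets of 5 libraries (5 genes by 4 strains, leaving out admA in ΔadmAΔadmB, where all are at 0), 7 had a library whose gap to the next exceeded Dixon's 95% limit on the log2(RPKM + 1) scale. Chance gives about 1 in 20 for continuous values, a rate that does not apply to genes held by a few reads, so the 7 are not set against it. Control replicate 5 was flagged for admA, at 14.2 RPKM with the next control at 0.248, and for AO090138000112, at 7.60 with the next at 0.176. Replicate 5 was flagged for AO090138000115 in ΔadmA, at 5.62 RPKM against 0.447, and in ΔadmAΔadmB, at 6.98 against 0.564. ΔadmB replicate 1 was the lowest of its strain for AO090138000116, at 19.3 RPKM against 56.3. The other 2 were single values above 0 among 4 libraries listed at 0, where the gap is the whole range by construction: admA at 0.0917 RPKM in ΔadmA replicate 4 and AO090138000112 at 0.124 RPKM in ΔadmB replicate 1.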

How the results depend on the processing

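No flanking gene passed in any of 178 alternative fits over the 6 comparisons. Outside ΔadmA against the control, 0 of all genes tested passed in most of these fits, which thus say little about the flanking genes in particular. Not every fit held all of them. With a mean of at least 10 RPKM only AO090138000116 was tested, and with scaling to the same sum only AO090138000113 and AO090138000116. These included the replicate block, other scalings, filters, sample weights, library set as a covariate and each library left out. AO090138000116 came closest, in the averaged loss with sample quality weights (-0.94, interval -1.53 to -0.35, limma adjusted p = 0.071). The same weights gave -1.45 for this gene in ΔadmAΔadmB against the control (limma adjusted p = 0.45). Its averaged difference also had an interval below 0 without control replicate 5 (-0.71) and without ΔadmB replicate 1 (-0.73). Scaling to the same sum moved the median of all genes to -0.11 in ΔadmAΔadmB and -0.13 in ΔadmB against the control. For admA above 0, the difference in share of libraries was 75% in set 2 alone (Fisher's exact test, p = 0.14). The level difference between libraries keeping and lacking admA became 0.15 in set 2 alone (exact permutation p = 0.14) and was 0.54 to 0.97 without 1 library. For ΔadmA against the control the call was lost with median-of-ratios scaling (-0.90, exact permutation p = 0.087) and in 9 of 10 tests without 1 library (-1.12 to -0.13). In set 1 (-2.08, exact permutation p = 0.20) and set 2 (-0.11, p = 0.60) alone it compared 3 with 2 libraries, which cannot pass 0.05 whatever the difference. With the replicate block its difference stayed -0.89 (exact permutation within numbers, p = 0.125), and that of ΔadmAΔadmB against ΔadmB stayed -0.86 (p = 0.0625, the smallest that 5 pairs allow, so neither could pass); keeping against lacking admA still passed (p = 0.00077). In set 1 alone ΔadmAΔadmB against ΔadmB gave -1.01 (exact permutation p = 0.057, the smallest that 3 against 4 libraries allow), and without 1 library -1.01 to -0.54. ΔadmB against the control turned to 0.70 without control replicate 5 (range without 1 library -0.38 to 0.70). The replicate block moved the calls over all genes in ΔadmA against the control from 115 to 201, against 2 to 686 over all alternatives. Genes at an unadjusted limma p under 0.05 rose with the block in every comparison, in the averaged loss from 1056 to 1559. Deviations of same-numbered libraries correlated at -0.22 to 0.52, with medians of 0.04 to 0.36 by number, against -0.04 for different numbers. Few reads limit admA and AO090138000112 throughout.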

Other observations

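AO090138000117, the next gene beyond AO090138000116, was above 100 RPKM in 5 libraries, at 189.6 to 529 RPKM, and at 10.6 RPKM or less in the other 15. The 5 were 2 of ΔadmA, 2 of ΔadmAΔadmB and 1 of ΔadmB, with 0 in the control. This gene was chosen after its values were seen.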
